A study of Craterostigma plantagineum with 12 samples.

Results

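Cellulose synthases are the membrane enzymes that spin cellulose into the plant cell wall, and in leaves of the resurrection plant Craterostigma plantagineum 97 of 48045 assembled contigs carried their name. A contig was a member when its plant description held the words "cellulose synthase" in any case, and the members were then sorted by the wording of that description. There were 36 contigs of catalytic subunits, 32 of cellulose synthase-like proteins, 21 of cellulose synthase-interactive (accessory) proteins and 8 that the wording did not place. The contigs were pieces of transcripts of 302 to 3509 bases with a median of 550, so that several can belong to 1 gene. They are therefore counted as contigs and not as genes. Of the 97 contigs, 94 passed the filter on low counts and were tested.

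RNA was sequenced from pools of leaves of 6 to 9 plants, with 3 separate pools per state. Fresh leaves had a relative water content (RWC) of 100%. A first set of drying leaves was taken at 60% RWC after 3 to 4 days, and desiccated leaves at 2% RWC after 15 days. Rehydrated leaves had been dried and then kept submerged in water for 24 h. No genotype or other treatment set the groups apart, and plants watered over the same days were not part of these samples, so that water content and elapsed time cannot be told apart.

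Cellulose is made by rosettes in the plasma membrane that hold several different catalytic subunits. In Arabidopsis, subunits 1 and 3 together with subunits of the group of 2, 5 and 6 build the primary wall of growing cells, and subunits 4, 7 and 8 build the thick secondary wall of xylem vessels and fibres. Interactive proteins link the rosettes to cortical microtubules, and the cellulose synthase-like families are related glycosyltransferases, of which family D is best known from tip-growing and dividing cells. The numbers used for the contigs are those of their descriptions, and the Arabidopsis roles are background. Craterostigma leaves shrink and fold as they dry and regain their shape in water, which makes the wall a long-standing subject in this plant.

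Between 14784251 and 21271288 reads per library fell on contigs. Of the 4 states, fresh leaves varied most between libraries, with a common biological coefficient of variation of 0.537, against 0.143 at 60% RWC, 0.135 at 2% RWC and 0.266 after rehydration. Leaf identity was clear, since 28 contigs of Rubisco small subunit and chlorophyll a-b binding proteins summed to 17131 to 29742 CPM in fresh leaves. Levels are given as RPKM (reads divided by contig length and by the total of the library), which allows levels of different contigs to be compared, and sums over contigs as CPM (reads divided by that total alone). Differences are log2 folds from edgeR's quasi-likelihood test, and calls rest on an adjusted p below 0.05 (Benjamini-Hochberg, over all 46494 contigs tested). The 5 comparisons share libraries with each other and are not independent.

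The summed level of the primary-wall catalytic subunits fell as leaves dried and was back near the fresh level a day after rewatering, while single contigs differed in depth and timing. The 29 contigs of subunits 1, 2, 3 and 5 summed to 913, 1059 and 684 CPM in the fresh libraries. At 60% RWC the sums were 292, 297 and 328, and at 2% RWC they were 268, 254 and 268. After rehydration they were 1083, 916 and 1274 CPM, within or above the range of the fresh libraries, which themselves differed more from each other than the dried ones did.

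**Figure D1:**
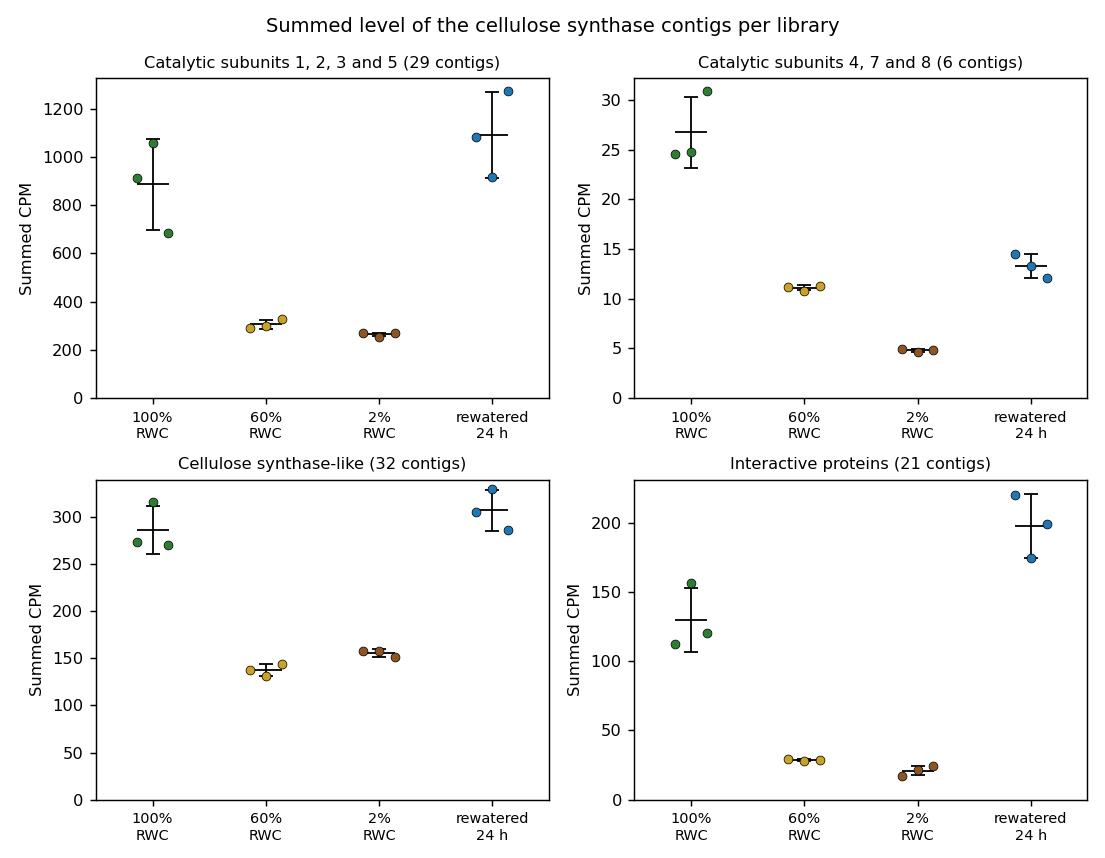
Summed CPM per library (points) for 4 classes of contigs, with the mean and SD of the 3 libraries of each state (line and bars); each vertical axis starts at 0. Rehydrated libraries of subunits 1, 2, 3 and 5 lie at 916 to 1274 CPM beside fresh libraries at 684 to 1059, while those of subunits 4, 7 and 8 lie at 12 to 14.5, below all fresh libraries at 24.6 to 30.8.

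Of the 35 catalytic contigs tested, 28 fell at 60% against 100% RWC, or 80%, where 23.3% of all contigs fell. None of the 35 rose, against 15.6% of all contigs, and none was higher at an unadjusted p below 0.05 or by DESeq2. The median log2 fold of the catalytic contigs was -1.48, against -0.06 over all contigs. At 2% against 100% RWC 32 of 35 fell, where 34.9% of all contigs fell and 26.0% rose, and the median was -2.94 against -0.22. Again none rose, and none was higher at an unadjusted p below 0.05 or by DESeq2. From 60% to 2% RWC 23 catalytic contigs fell further and 1 rose, beside 25% of all contigs that fell and 19.5% that rose. On rewatering, 31 of 35 rose against the 2% state, where 31.1% of all contigs rose and 25.4% fell, with a median of 2.69 against 0.13. None of the 35 fell on rewatering, at an unadjusted p below 0.05 or by DESeq2 either. Reads of 5 of the 35, all of subunits 1, 2, 3 and 5, were under 95% unique, down to 36.1%. Part of those reads could also belong to a similar contig. A similar course was seen in the 28 contigs of Rubisco small subunit and chlorophyll a-b binding proteins. Of these, 26 fell at 60% and 26 at 2% RWC against fresh, and 0 rose in either state. On rewatering 25 of them rose and 1 fell.

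Subunit 1, an essential partner of every primary-wall rosette in Arabidopsis, had the highest mean RPKM among the catalytic contigs. Its near full-length contig_852 stood at 85.9, 129 and 74.4 RPKM in fresh leaves, at 37.9, 38 and 41.7 at 60% RWC, at 56.5, 53 and 56.5 at 2% RWC and at 119, 104 and 133 after rehydration. The libraries of both dried states lay below all fresh libraries, and those at 2% lay above those at 60%. The fall to 60% had a log2 fold of -1.17 (SE 0.18, edgeR's quasi-likelihood adjusted p = 0.000491). At 2% RWC the fold against fresh was -0.56 (edgeR's adjusted p = 0.0187), and the rise from 60% to 2% was 0.61 (edgeR's adjusted p = 0.017), the 1 catalytic contig that rose in that step. These 2 calls at 2% RWC were lost without 2% replicate 1 or 2 or with only the 6 libraries compared (against fresh) and without 60% replicate 1 or 2 or 2% replicate 3 (against 60%). Subunit 1 thus stayed comparatively high in desiccated leaves: its 2 contigs summed to 194, 181 and 194 of the 276, 262 and 277 CPM of all catalytic contigs there. In fresh leaves they summed to 296, 443 and 255 of 957, 1103 and 736 CPM. At 60% RWC they summed to 131, 131 and 143 of 310, 314 and 349 CPM.

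Subunit 2 accounted for most catalytic contigs, with 22 pieces of which 21 were tested, and for the largest fitted falls at 2% RWC among the primary-wall subunits. Of these 21, 15 fell at 60% RWC against fresh (23.3% of all contigs did), 18 fell at 2% RWC (34.9% of all), and 19 rose on rewatering (31.1% of all). Their sum went from 512, 496 and 328 CPM in fresh leaves to 121, 130 and 141 at 60% RWC and 44.8, 49.1 and 49.2 at 2% RWC. It was 516, 411 and 645 CPM after rehydration. The 2 dried states did not overlap with each other or with the fresh and rehydrated libraries.

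The longest piece, contig_5815 of 3509 bases, was listed at 65.7, 68.4 and 27.2 RPKM in fresh leaves. It was at 6.76, 7.68 and 9.38 RPKM at 60% RWC, at 2.51, 2.25 and 2.54 at 2% RWC and at 44.8, 32 and 48.2 after rehydration. The 4 states thus fell in separate ranges apart from fresh replicate 3, which lay below the rehydrated libraries. The log2 fold was -4.24 (SE 0.35) at 2% against 100% RWC, with edgeR's adjusted p = 2.36e-06, and -0.53 (SE 0.31) after rehydration against fresh, with edgeR's adjusted p = 0.298. The short contig_10199, with the highest mean RPKM of subunit 2, gave 86.7, 90.3 and 37.5 RPKM in fresh and 1.69, 2.6 and 3.73 RPKM in 2% leaves, a log2 fold of -4.52 (edgeR's adjusted p = 3.9e-06). Its fresh replicate 3 was again the lowest of the fresh libraries.

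A second group of subunit 2 pieces shared 1 best-matching sesame protein in the authors' annotation, and its 8 contigs did not move alike at 60% RWC. There 6 of the 8 fell, beside 23.3% of all contigs, and the log2 folds ran from -3.48 to 0.28. The largest fall at 2% RWC was that of contig_14895, at 42.8, 22.7 and 31.1 RPKM in fresh and 0.925, 0.316 and 0.151 RPKM in desiccated leaves (log2 fold -5.90, SE 0.52, edgeR's adjusted p = 3.73e-06). By contrast, contig_4638 was at 36, 19.7 and 27.7 RPKM in fresh and at 32, 31.5 and 32.9 RPKM in 60% leaves, where the groups overlapped and no change was called. It then stood at 12.8, 14 and 13.9 RPKM at 2% RWC, a log2 fold of -0.85 against fresh (edgeR's adjusted p = 0.0168) that was lost without fresh replicate 1 or 2% replicate 1, or with only the 6 libraries compared. The difference in response between these contigs was not tested.

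On rewatering all 8 of that group rose against 2% RWC, beside 31.1% of all contigs, by log2 folds of 1.23 to 6.75. One of them, contig_6266, was also the only catalytic contig called above the fresh level. It was at 8.61, 17.5 and 11.7 RPKM in fresh leaves and 29.8, 24 and 52.8 RPKM in rehydrated leaves, which did not overlap. The log2 fold was 1.36 (SE 0.31, edgeR's adjusted p = 0.0213), and the call was lost without fresh replicate 1 or rehydrated replicate 3, with voom, and with only the 6 libraries compared. Its neighbour contig_1439 gave 11.6, 21.2 and 16.7 RPKM in fresh and 31.3, 26 and 54.1 RPKM in rehydrated leaves, a log2 fold of 1.03 that was not called (edgeR's adjusted p = 0.0607). At the other end, the subunit 2-like contigs contig_26852 and contig_29322 were called in none of the 5 comparisons. The first was at 4.5 to 9.07 RPKM in fresh and 2.56 to 6.13 RPKM in 2% leaves, which overlapped.

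Subunit 3, which pairs with subunit 1 in primary-wall rosettes, also fell on drying. All 4 of its contigs fell at 60% RWC and at 2% RWC and rose on rewatering, beside 23.3%, 34.9% and 31.1% of all contigs. Their medians were -1.41, -2.18 and 2.57, beside -2.17, -3.47 and 3.56 for subunit 2. The contig with the highest mean, contig_7471, was at 53.3, 66 and 61.8 RPKM in fresh leaves, at 22, 23.7 and 29.4 at 60% RWC and at 22.6, 21.1 and 16.5 at 2% RWC. It reached 83.9, 79.9 and 90.8 RPKM after rehydration, above every fresh library, although the log2 fold of 0.33 was not called (edgeR's adjusted p = 0.238). A contig named plainly "cellulose synthase 3", contig_5724, which the wording left unclassed, gave 37.9, 48.4 and 37.2 RPKM in fresh, 9.27, 8.68 and 7.76 in 2% and 64.1, 58.9 and 70.6 in rehydrated leaves. Its rehydrated libraries too all lay above the fresh ones, with a log2 fold of 0.49 that was not called (edgeR's adjusted p = 0.0641). Counted with the catalytic subunits, the unclassed contigs other than the DUF1644 protein made 37 instead of 32 contigs that fell at 2% RWC and 36 instead of 31 that rose on rewatering. One of them, a putative cellulose synthase on contig_38108, was at 4.26, 3.53 and 1.83 RPKM in fresh and 0.738, 0.464 and 0.836 RPKM in rehydrated leaves, with no read at 2% RWC. With a floor of 3 reads per library it was at least 10.5-fold lower at 2% RWC than in fresh leaves. Its log2 fold of -2.39 after rehydration against fresh (edgeR's adjusted p = 0.0322) was lost without fresh replicate 1, 60% replicate 3 or any 1 rehydrated library, with the replicate block, with voom, and with only the 6 libraries compared.

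Subunit 5 was represented by 1 contig at low counts, contig_38178, with 33 reads over the fresh libraries, 2 at 60% RWC, 3 at 2% RWC and 66 after rehydration. The ratio of fresh to 2% was 12.2, with a 95% counting interval of 3.82 to 62. A contig described as a truncated catalytic subunit, contig_5764, moved as the primary-wall subunits did, from 40.8, 42.2 and 47.4 RPKM in fresh to 7.26, 7.34 and 7.43 RPKM in 2% leaves and 62.7, 53 and 70.9 RPKM after rehydration.

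**Figure D2:**
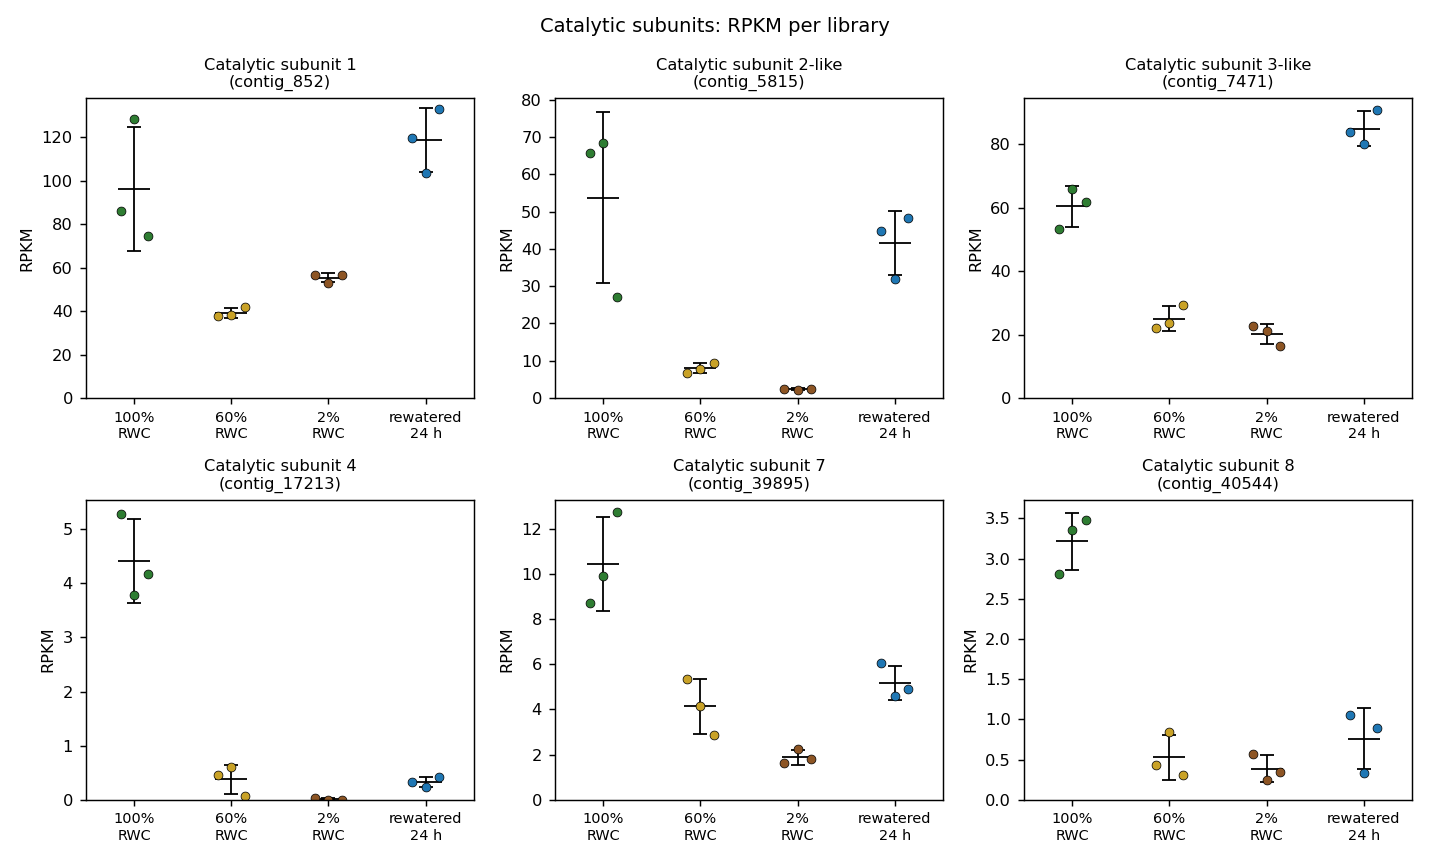
RPKM per library (points) of 1 contig for each of 6 catalytic subunits in the 4 states, with mean and SD (line and bars); axes start at 0 and differ between panels. After rehydration the contigs of subunits 1 and 2 overlap with fresh leaves, and that of subunit 3 lies above every fresh library, without a call. Subunit 4 stays at 0.237 to 0.428 RPKM against 3.79 to 5.28 in fresh leaves.

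The secondary-wall subunits 4, 7 and 8 also fell on drying, but most of their contigs were still below the fresh level 24 h into rehydration. Their 6 contigs summed to 24.6, 24.8 and 30.8 CPM in fresh leaves, to 11.2, 10.8 and 11.3 at 60% RWC and to 4.96, 4.61 and 4.8 at 2% RWC. After rehydration the sums were 14.5, 13.3 and 12 CPM. All rehydrated libraries thus lay below all fresh ones and above all those at 2% RWC. Of the 6 contigs, 5 fell at 60% and all 6 at 2% RWC against fresh, and 4 rose on rewatering, beside 23.3%, 34.9% and 31.1% of all contigs.

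Against fresh leaves, 5 of the 6 secondary-wall contigs were lower after rehydration, where 5.69% of all contigs were lower and 3.71% higher, with a median log2 fold of -1.68 against -0.06. None of the 28 tested contigs of subunits 1, 2, 3 and 5 was lower, although 3 were at an unadjusted p below 0.05 and 1 by DESeq2, and their median was 0.27. The difference between the 2 sets of subunits was not tested. The 5 calls that the secondary-wall contigs gave were all the catalytic calls in that direction, and they shrank to 2, 1 and 2 without rehydrated replicate 1, 2 and 3. The replicate numbers used as a block left 3, a fit on the 6 libraries alone left 2, and voom left 1.

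For subunit 4, the main piece, contig_17213, was at 5.28, 3.79 and 4.16 RPKM in fresh leaves, at 0.448, 0.604 and 0.0745 at 60% RWC, at 0.0339, 0 and 0 at 2% RWC and at 0.324, 0.237 and 0.428 after rehydration. In reads, these were 353 in fresh, 30 at 60%, 1 at 2% and 27 in rehydrated leaves, summed over 3 libraries each. Every library of the other states lay below every fresh one. Fresh leaves thus exceeded 2% leaves 390-fold with a 95% counting interval of 69.6 to 15500, which covers counting error only.

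After rehydration the log2 fold of contig_17213 against fresh was -3.90 (SE 0.55, edgeR's adjusted p = 0.00181), and this call held in each alternative run on it. The shorter contig_38097 of subunit 4 had 55 reads in fresh, 2 at 60%, 1 at 2% and 7 in rehydrated leaves. Its log2 fold of -3.08 against fresh (edgeR's adjusted p = 0.0183) was lost with voom and without any 1 of the rehydrated libraries.

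Subunit 8, on contig_40544, gave 2.81, 3.35 and 3.48 RPKM in fresh leaves and 1.05, 0.33 and 0.893 RPKM after rehydration. The groups did not overlap, and the log2 fold was -2.20 (SE 0.49, edgeR's adjusted p = 0.0185), a call lost without rehydrated replicate 2, with voom, and with only the 6 libraries compared. At 60% RWC the contig was at 0.432, 0.84 and 0.311 RPKM, already as low as at 2% RWC, where it was at 0.566, 0.242 and 0.348. These values rest on 61 reads in fresh, 10 at 60%, 8 at 2% and 15 in rehydrated leaves.

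The 3 contigs of subunit 7 had smaller fitted folds after rehydration than those of subunits 4 and 8, a difference that was not tested. The highest of them, contig_39895, went from 8.71, 9.9 and 12.7 RPKM in fresh leaves to 1.61, 2.24 and 1.79 at 2% RWC and 6.04, 4.6 and 4.92 after rehydration. Its log2 fold of -1.17 after rehydration against fresh (edgeR's adjusted p = 0.0296) was lost without fresh replicate 3 or any 1 rehydrated library, with the replicate block, with voom, and with only the 6 libraries compared. The next, contig_34903, had -0.94 (edgeR's adjusted p = 0.0425) and lost the call without fresh replicate 3 or any 1 library of the other states, and under the same 3 alternatives and with unique reads. The third, contig_24095, was at 3.98, 4.09 and 5.65 RPKM in fresh and 4.73, 4.73 and 3.7 RPKM in rehydrated leaves, which overlapped and were not called different (log2 fold -0.24, edgeR's adjusted p = 0.534).

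Xylem markers and, in a smaller share, mesophyll markers were lower in the same comparison. The 14 tested contigs of the xylem list were described as laccases (oxidases, some of which polymerise lignin), irregular xylem proteins or xylem cysteine proteinases. Of these, 8 were lower after rehydration than in fresh leaves. That was 57.1%, against 5.69% of all contigs, and none was higher, at an unadjusted p below 0.05 or by DESeq2 either. Their summed level was 123 to 283 CPM in fresh, 112 to 155 at 60%, 162 to 232 at 2% and 44.9 to 69.6 in rehydrated leaves, and no contig of the list was without reads. The xylem cysteine proteinase contig_4248 was at 64.4, 47.8 and 46.2 RPKM in fresh and at 1.44, 0.621 and 1.88 RPKM in rehydrated leaves (log2 fold -5.50, edgeR's adjusted p = 0.000582). The list was split on drying: at 60% RWC against fresh 5 of the 14 fell and 4 rose, beside 23.3% and 15.6% of all contigs. At 2% RWC 6 fell and 4 rose, beside 34.9% and 26.0%. One of those that rose, the laccase-15-like contig_10014, holds much of the sum in dried leaves. It joined the list by the word laccase, and whether it marks xylem was not tested. It went to 132, 89.2 and 87.3 RPKM at 2% RWC from 28.1, 28.4 and 18.6 RPKM in fresh leaves. Of the 28 mesophyll contigs, 7 were lower after rehydration than in fresh leaves, or 25%, against 5.69% of all contigs, and none was higher, at an unadjusted p below 0.05 or by DESeq2 either. Their sum was 12976 to 18865 CPM in rehydrated and 17131 to 29742 CPM in fresh leaves. In whole leaves, fewer xylem cells and less RNA of these genes per cell cannot be told apart, and the part of xylem or mesophyll content in the result for subunits 4, 7 and 8 was not tested.

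**Figure D3:**
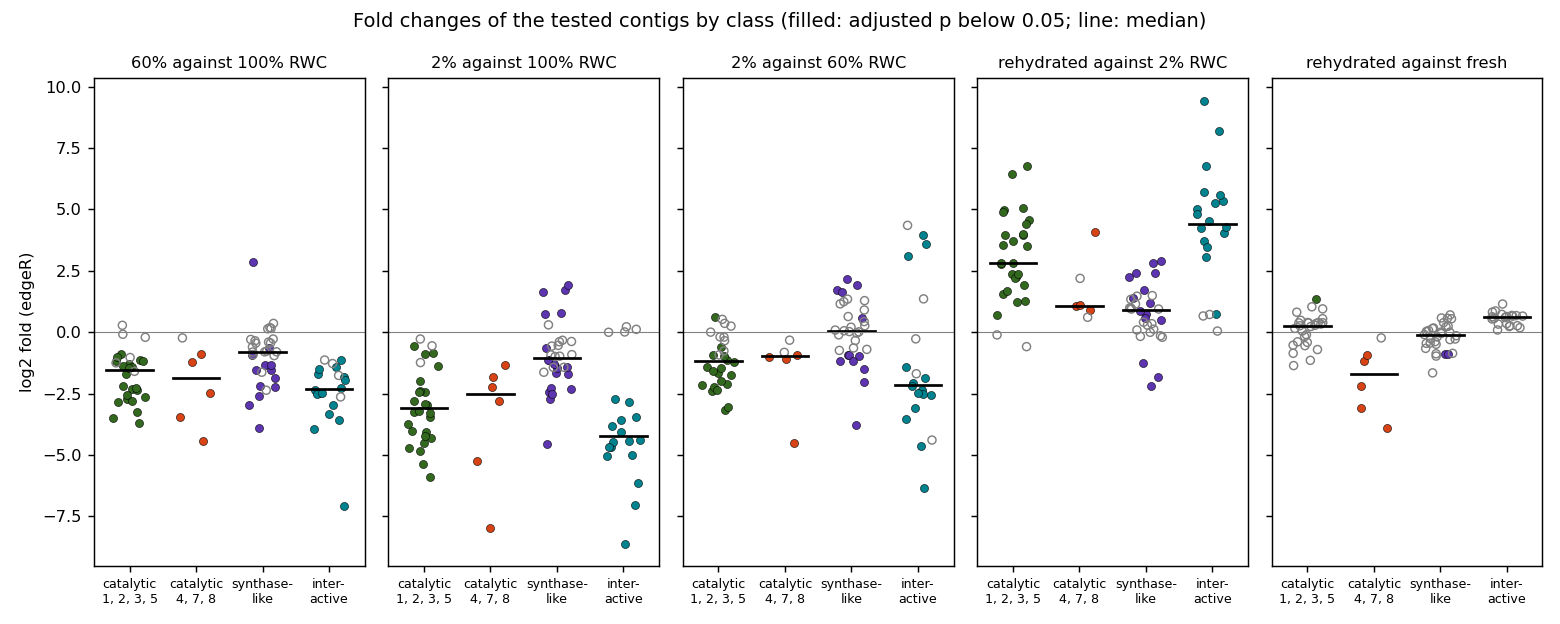
Fitted log2 fold (vertical axis) of each tested contig in 5 comparisons, by class; filled points had an adjusted p below 0.05, open points did not, and lines mark class medians. Contigs of subunits 4, 7 and 8 have a median of -1.68 after rehydration against fresh, while the interactive proteins have 0.61; fitted folds of contigs with almost no reads in a state are not bounds.

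The cellulose synthase-like contigs moved in both directions, at shares nearer to those of all contigs. Of 32 contigs, 12 fell at 60% against 100% RWC, or 37.5% beside 23.3% of all, and 1 rose, beside 15.6% of all. At 2% against 100% RWC 14 fell, or 43.8% beside 34.9% of all, and 5 rose, or 15.6% beside 26.0% of all. The medians were -0.81 and -1.07, against -0.06 and -0.22 over all contigs. From 60% to 2% RWC 8 fell and 5 rose, or 25% and 15.6%, beside 25% and 19.5% of all contigs. On rewatering 12 rose and 3 fell, or 37.5% and 9.38%, beside 31.1% and 25.4% of all contigs. After rehydration 2 were lower than in fresh leaves and none was higher, though 2 were at an unadjusted p below 0.05 and 0 by DESeq2. These counts depended on single libraries: the falls at 60% were 7 without 60% replicate 3, and the rises at 2% were 3 without 2% replicate 1 and 3 without 2% replicate 2. From 60% to 2% RWC the falls were 5 without 60% replicate 1, 5 without 60% replicate 3, and 4 without 2% replicate 1 or 2. The rises on rewatering were 7 without 2% replicate 1. The 2 contigs below fresh after rehydration fell to 0 without any 1 rehydrated library, and 3, 1 and 1 contigs were higher than fresh without fresh replicate 1, 2 and 3.

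Family D, whose members D2, D3 and D5 make wall polysaccharides in tip-growing or dividing Arabidopsis cells, held contrasting members. The D5 contig with the highest mean, contig_32853, was at 43.8, 58 and 54.3 RPKM in fresh, 37.5, 29.2 and 39.5 at 60%, 13.1, 16.9 and 20 at 2% and 36.9, 30 and 43.2 RPKM in rehydrated leaves. It fell at 2% RWC below every other library, with a log2 fold of -1.41 against fresh (SE 0.22, edgeR's adjusted p = 0.000224). Another D5 contig, contig_43256, was the only member that rose at 60% RWC. It was at 0.674, 0.297 and 0.679 RPKM in fresh, 3.93, 3.94 and 3.54 at 60%, 0.368, 0.157 and 0.226 at 2% and 1.17, 0.43 and 0.291 RPKM in rehydrated leaves. The 60% libraries stood apart from all others, with a log2 fold of 2.85 against fresh (SE 0.52, edgeR's adjusted p = 0.00137) on 16 reads in fresh and 113 at 60% RWC.

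Both D4 contigs rose at 2% RWC and not at 60% RWC. In contig_41716 the libraries were at 0.83, 2.05 and 0.433 RPKM in fresh, 0.777, 1.29 and 1.36 at 60%, 3.35, 3.26 and 3.83 at 2% and 1.15, 1.17 and 0.68 RPKM in rehydrated leaves. The desiccated libraries lay above all others, with a log2 fold of 1.91 against fresh (SE 0.42, edgeR's adjusted p = 0.00232) and -2.19 on rewatering (edgeR's adjusted p = 0.00112). The other, contig_43270, gave 1.17, 1 and 0.99 RPKM in fresh and 2.67, 2.75 and 3.66 RPKM in 2% leaves, a log2 fold of 1.72 (edgeR's adjusted p = 0.00196). A further riser at 2% RWC, the D5 contig_43031, overlapped with the fresh group, at 5.38, 9.28 and 8.56 against 14.4, 11.6 and 7.94 RPKM. Its log2 fold of 0.79 (edgeR's adjusted p = 0.0388) was lost without fresh replicate 1, 60% replicate 1, 2% replicate 1 or 2, or rehydrated replicate 2, with the replicate block, with voom, and with only the 6 libraries compared.

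The D3 contigs peaked in 1 fresh library. All 5 were far higher in fresh replicate 1 than in the other fresh libraries, as in contig_3611 with 25, 5.86 and 5.66 RPKM and contig_12663 with 18, 4.84 and 3.27 RPKM. At 60% RWC contig_3611 was at 2.02, 3.48 and 2.18 RPKM. There 4 of the 5 contigs were called lower than in fresh leaves, beside 23.3% of all contigs. One of the 4, contig_9427 (log2 fold -2.59, edgeR's adjusted p = 0.0452), kept its call in 6 of 18 alternatives, and lost it with the replicate block, with voom, without fresh replicate 1 and without any 1 library of the other states. The call of contig_12663, at a log2 fold of -2.21 (edgeR's adjusted p = 0.0153), was lost without fresh replicate 1, without 60% replicate 2 or 3 and with only the 6 libraries compared, and over the alternatives its fold ran from -2.62 to -0.95. For contig_3611 it was -2.22 (edgeR's adjusted p = 0.0136), with -2.60 to -0.99 over the alternatives, and the call was lost without 60% replicate 1 or 3 or with only the 6 libraries compared. Across all members, 17 of the 94 tested spanned more than 4-fold between fresh libraries, 11 of them cellulose synthase-like and 2 catalytic.

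**Figure D4:**
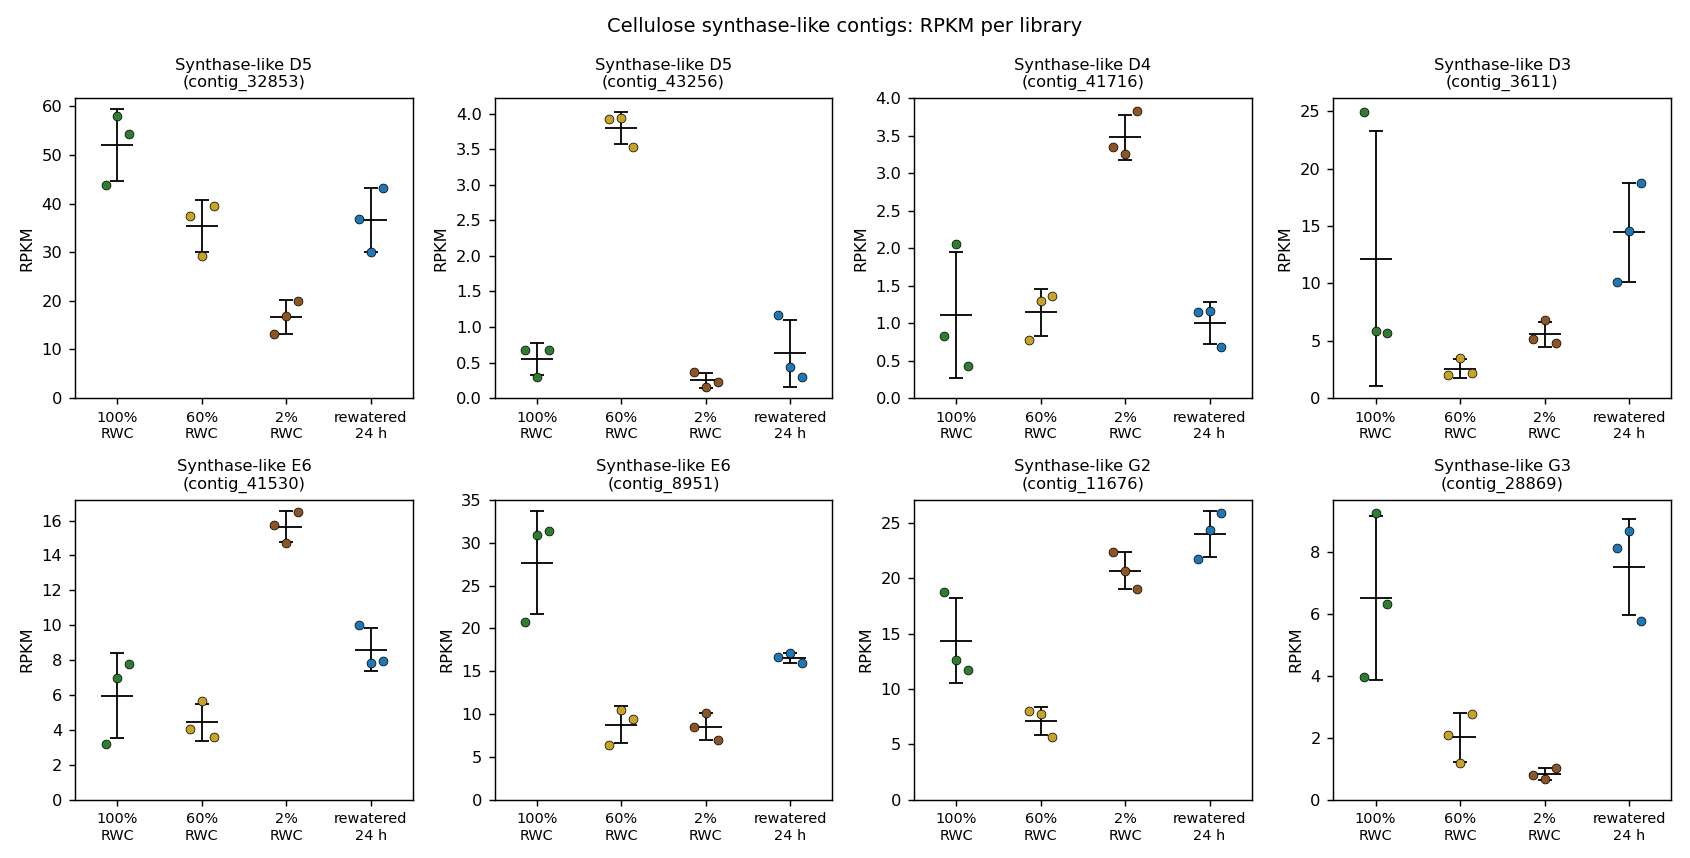
RPKM per library (points) of 8 cellulose synthase-like contigs in the 4 states, with mean and SD (line and bars); axes start at 0 and differ between panels. The D5 contig_43256 peaks at 60% RWC (3.54 to 3.94 RPKM), the D4 contig_41716 and the E6 contig_41530 peak at 2% RWC, and the D3 contig_3611 is highest in 1 fresh library, at 25 RPKM.

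Families E and G likewise held both falling and rising members. The E6 contig_8951 fell from 20.8, 31 and 31.3 RPKM in fresh leaves to 6.36, 10.5 and 9.39 at 60% and 8.45, 10.2 and 6.96 RPKM at 2% RWC. It was at 16.6, 17.2 and 16 RPKM after rehydration, still under all fresh libraries, with a log2 fold of -0.90 (edgeR's adjusted p = 0.0279) that was lost without any 1 rehydrated library, with voom, and with only the 6 libraries compared. The same held for contig_9172, also E6, at -0.88 (edgeR's adjusted p = 0.0271), which was lost with the replicate block too. A further E6 contig, contig_41530, went the other way on desiccation. It was at 3.18, 6.96 and 7.76 RPKM in fresh, 4.04, 5.65 and 3.6 at 60%, 15.8, 14.7 and 16.5 at 2% and 10, 7.83 and 7.96 RPKM in rehydrated leaves. The 2% libraries lay above all others, with a log2 fold of 1.64 against fresh (SE 0.29, edgeR's adjusted p = 0.000488).

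In family G, contig_11676 (G2) fell at 60% RWC and was high again in desiccated leaves. Its values were 18.7, 12.6 and 11.8 RPKM in fresh, 7.97, 7.73 and 5.63 at 60%, 22.4, 20.7 and 19 at 2% and 21.8, 24.4 and 25.9 RPKM in rehydrated leaves. The step from 60% to 2% RWC had a log2 fold of 1.65 (SE 0.25, edgeR's adjusted p = 0.000312). Against fresh, the fold was -0.93 at 60% RWC (edgeR's adjusted p = 0.0103) and 0.72 at 2% RWC (edgeR's adjusted p = 0.0217). The first call was lost without 60% replicate 3, the second without fresh replicate 2 or 2% replicate 1 or 2, and both with only the 6 libraries compared. The G3 contig_28869 fell throughout drying instead, from 3.97, 9.25 and 6.31 RPKM in fresh to 2.1, 1.19 and 2.76 at 60% and 0.782, 0.668 and 1.03 RPKM at 2% RWC, and was at 8.12, 8.67 and 5.76 RPKM after rehydration. Its log2 fold at 2% against fresh was -2.73 (edgeR's adjusted p = 6.32e-05). The call of its fall from 60% to 2% RWC was lost without 60% replicate 1 or 3 or 2% replicate 1 or 2.

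The interactive proteins fell on drying, and their sum after rewatering lay above that of fresh leaves. Their 21 contigs summed to 113, 156 and 120 CPM in fresh leaves, 29.6, 28 and 28.7 at 60% RWC, 17.3, 21.3 and 24.1 at 2% RWC and 220, 174 and 199 after rehydration. All rehydrated libraries lay above all fresh ones. Of 20 contigs tested, 16 fell at 60% and 16 at 2% RWC against fresh, or 80% each, beside 23.3% and 34.9% of all contigs. The medians were -2.32 and -4.22, against -0.06 and -0.22 over all contigs. With contigs that had no reads in a state set at a floor of 3 reads per library, the median at 2% RWC was -3.94. On rewatering 17 of the 20 rose, or 85%, beside 31.1% of all contigs, with a median log2 fold of 4.39, or 4.26 with that floor, against 0.13 over all contigs.

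In all 20 tested contigs the state with the highest mean RPKM was the rehydrated one, which held for 31.8% of all contigs. Yet none of the 20 was called above fresh leaves by edgeR's quasi-likelihood test. At an unadjusted p below 0.05, 5 were higher, and DESeq2 called 2. The median log2 fold against fresh was 0.61, with a range of 0.09 to 1.14. None rose at 60% or at 2% RWC against fresh, at an unadjusted p below 0.05 or by DESeq2 either. Reads of 9 of the 20 contigs were under 95% unique, down to 12.1%, so part of them could also belong to a similar contig.

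INTERACTIVE 3, a partner of INTERACTIVE 1 in Arabidopsis, lost nearly all reads in desiccated leaves. Its 9 contigs summed to 36, 44.6 and 39.5 CPM in fresh, 7.22, 6.01 and 6.83 at 60%, 0.991, 1.27 and 1.01 at 2% and 85.8, 61.7 and 61.5 CPM in rehydrated leaves. Each state had its own range, with rehydrated leaves highest. Of the 9, 8 fell at 60% and 9 at 2% RWC against fresh, and 9 rose on rewatering, beside 23.3%, 34.9% and 31.1% of all contigs. Its contig_3306 was at 14.4, 16.4 and 14.8 RPKM in fresh, 2.8, 2.39 and 2.31 at 60%, 0.421, 0.519 and 0.23 at 2% and 32.8, 24.2 and 24.8 RPKM in rehydrated leaves.

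That contig rose on rewatering by a log2 fold of 5.69 (SE 0.28, edgeR's adjusted p = 2.37e-07), and stood at 0.68 against fresh (SE 0.21, edgeR's adjusted p = 0.0684), not called although the groups did not overlap. The piece contig_37007 had 145 reads in fresh, 28 at 60% and 293 in rehydrated leaves and none at 2% RWC. With a floor of 3 reads per library it was at least 17.6-fold lower at 2% RWC than in fresh leaves, and at least 34.5-fold higher after rehydration than at 2% RWC.

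INTERACTIVE 1, the protein that ties rosettes to microtubules in Arabidopsis, had contigs with 2 courses through drying. One set fell at 60% and fell further at 2% RWC. The longest, contig_8218, was at 9.69, 14.2 and 11.9 RPKM in fresh, 3.44, 3.37 and 3.34 at 60%, 0.705, 0.793 and 0.296 at 2% and 14.8, 12.3 and 17.9 RPKM in rehydrated leaves. Its log2 folds were -1.70 at 60% (SE 0.28, edgeR's adjusted p = 0.000659) and -4.07 at 2% RWC against fresh (SE 0.31, edgeR's adjusted p = 1.39e-06). The contigs contig_15488 and contig_14593 followed it, with log2 folds of -4.42 and -3.82 at 2% RWC.

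The other course was lowest at 60% RWC and back at the fresh level in desiccated leaves. In contig_16623 the libraries were at 4.53, 5.59 and 3.11 RPKM in fresh, 0.572, 0.386 and 0.595 at 60%, 3.51, 4.09 and 4.6 at 2% and 11.1, 8.21 and 7.58 RPKM in rehydrated leaves. The fresh and 2% libraries overlapped, with a log2 fold of 0.11 (SE 0.25, edgeR's adjusted p = 0.709), while the fold was -2.97 at 60% against fresh (SE 0.28, edgeR's adjusted p = 1.31e-05). From 60% to 2% RWC it rose by a log2 fold of 3.08 (edgeR's adjusted p = 1.35e-05). Both remaining pieces of this course did the same, and contig_26700 was at 10.2, 10 and 8.33 RPKM in fresh, 1.03, 0.601 and 0.556 at 60%, 6.07, 6.91 and 11.7 at 2% and 21.3, 20 and 12.1 RPKM in rehydrated leaves. The third, contig_7823, had 55, 3, 51 and 98 reads in the 4 states, in the same order.

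Of the 10 INTERACTIVE 1 contigs tested, 5 fell and 3 rose from 60% to 2% RWC, or 50% and 30%, beside 25% and 19.5% of all contigs. The 3 that rose were contig_16623, contig_26700 and contig_7823, which were picked out after their values were seen. Unique reads were 78.1% of all reads of contig_16623, 100% of those of contig_26700 and 80.2% of those of contig_8218. Whether the 2 courses come from different genes cannot be read from the files used here.

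**Figure D5:**
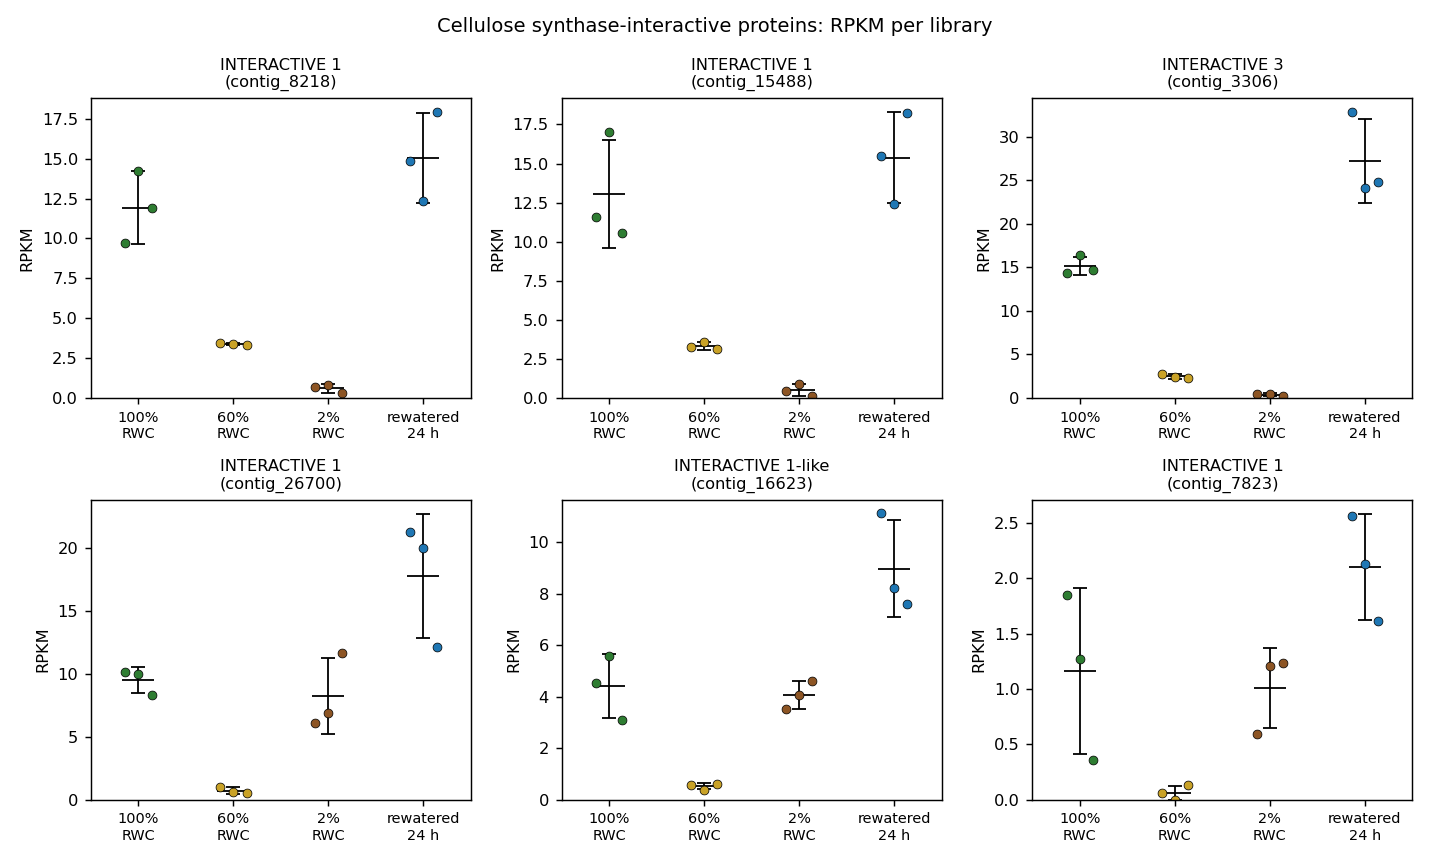
RPKM per library (points) of 6 contigs of interactive proteins in the 4 states, with mean and SD (line and bars); axes start at 0 and differ between panels. In the upper row (contig_8218, contig_15488, contig_3306) the 2% libraries are the lowest, and in the lower row (contig_26700, contig_16623, contig_7823) the 60% libraries are the lowest.

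A partner list of other genes linked to cellulose synthesis was drawn up by words in the descriptions, and most of its contigs fell on drying as well. Of 18 tested contigs of endoglucanase 25 (KORRIGAN), COBRA, chitinase-like 1 and STELLO descriptions and the like, 12 fell at 60% and 13 at 2% RWC against fresh, and 14 rose on rewatering, beside 23.3%, 34.9% and 31.1% of all contigs. None rose against fresh leaves in either dried state or fell on rewatering, at an unadjusted p below 0.05 or by DESeq2 either. The endoglucanase 25-like contig_7888, which in Arabidopsis trims or releases cellulose, was at 87.3, 92.7 and 121 RPKM in fresh, 28.1, 23 and 32.3 at 60%, 4.55, 5.75 and 5.22 at 2% and 88.5, 76.6 and 101 RPKM in rehydrated leaves. It had a log2 fold of -4.06 at 2% RWC (SE 0.23, edgeR's adjusted p = 2.5e-07) and overlapped with fresh after rehydration.

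Of the 18 tested contigs of the partner list, 3 were lower after rehydration than in fresh leaves, or 16.7%, beside 5.69% of all contigs. These were chitinase-like 1 on contig_1508 (log2 fold -1.24, edgeR's adjusted p = 0.00838) and on contig_18423 (-2.14, edgeR's adjusted p = 0.0121), and COBRA-like 10 on contig_24240 (-2.61, edgeR's adjusted p = 0.00847). The call of contig_18423 was lost without rehydrated replicate 2, and all 3 were lost when the 6 libraries of fresh and rehydrated leaves were fitted alone. Contigs of STELLO1 and STELLO2, Golgi proteins that help assemble rosettes in Arabidopsis, fell at 2% RWC by log2 folds of -2.27 (contig_20144) and -2.31 (contig_28251).

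Contigs of sucrose synthase and UDP-glucose pyrophosphorylase, enzymes that can make UDP-glucose, the substrate of cellulose synthase, were also counted. Of 23 tested, 12 rose and 1 fell at 60% RWC against fresh, beside 15.6% and 23.3% of all contigs, and 13 rose and 2 fell at 2% RWC, beside 26.0% and 34.9%. From 60% to 2% RWC 4 rose and 10 fell, beside 19.5% and 25% of all contigs. On rewatering 3 rose and 10 fell, beside 31.1% and 25.4% of all contigs. The median log2 fold against fresh was 0.57 at 60% RWC and 0.74 at 2% RWC, against -0.06 and -0.22 over all contigs. Single folds at 60% RWC ran from -1.95 to 5.93, so the sum does not stand for each contig. Their sum was 306 to 361 CPM in fresh leaves, 2656 to 3010 at 60% RWC, 705 to 835 at 2% RWC and 459 to 509 after rehydration. Transcripts alone were measured, not UDP-glucose. The sucrose synthase contig_881 was at 52.7, 8.55 and 7.63 RPKM in fresh, 787, 852 and 729 at 60%, 105, 123 and 81.6 at 2% and 57.8, 44.5 and 21.2 RPKM in rehydrated leaves. All libraries at 60% RWC lay far above the rest, with a log2 fold of 5.11 (SE 0.78, edgeR's adjusted p = 0.000453).

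The authors' deposited table gave an analysis of variance over the states, with a false discovery rate below 0.05 for 74 of the 97 members: 33 catalytic, 17 cellulose synthase-like, 18 accessory and 6 unclassed. In the authors' deposited table it held for 56.4% of all contigs. The F test over the 4 states run here with edgeR called 79 of the 94 tested, where 71.6% of all contigs were called.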

How the data were processed

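RNA came from 12 leaf pools in 4 states, prepared with a strand-specific kit and read as 75 bp paired ends in 5 MiSeq runs, per the labels' protocols. The authors deposited total and unique read counts per contig and RPKM. The sources used here do not name the assembler, aligner or counting tool. The deposited RPKM equalled the value recomputed from total counts, contig length and library total within a relative difference of 1.56e-08. False discovery rates (adjusted p-values) are those of the deposited table where named. Total counts were tested with edgeR 4.0.16 in R 4.3.3 (filterByExpr by state with a minimum count of 10, TMM factors of 0.863 to 1.19, robust quasi-likelihood fit over all 12 libraries, Benjamini-Hochberg over 46494 contigs). A run on simulated counts gave every state the same spread, so it did not check the fit under the unequal spread of these states. The filter left out 1551 contigs, among them 3 members. DESeq2 1.42.0 and voom (limma 3.58.1) were alternatives. A count of 3 reads per library was the floor, or 0.141 to 0.203 CPM. Counting intervals are exact and cover counting error only.

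Members, gene lists and tests were chosen with earlier results of these data known. Named contigs were those with the highest mean RPKM per subunit, family, accessory description and partner list, the 3 largest called changes in each direction among contigs in the upper 50% of abundance, and each member called higher on drying; all others were chosen after their values were seen. The pools are separate by label, and the main fit did not treat replicate numbers as pairing them. Other marker lists were also counted at 2% against 100% RWC: 26 of 28 mesophyll contigs fell and none rose (by DESeq2 or at an unadjusted p below 0.05 either), 19 of 23 guard cell contigs fell and none rose (likewise), 7 of 9 contigs of dividing cells rose and 1 fell, 11 of 14 root contigs rose and 0 fell, and 7 of 19 flower contigs fell and 5 rose. Over all contigs, 34.9% fell and 26.0% rose in that comparison, and the flower list, at 36.8% and 26.3%, lay near these shares. Of the secondary-wall list, which shares its laccases and proteinases with the xylem list, 9 of 16 were lower after rehydration than in fresh leaves. That was 56.2%, beside 5.69% of all contigs.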

Additional observations from a re-analysis of the deposited data

How the results depend on the processing

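No called direction reversed under any alternative run on the class counts and the named contigs. Of 6051 values of named contigs under the alternatives, 5743 stayed on their side of the threshold, 241 lost the call and 67 gained one. The catalytic falls of 28 (60% against fresh), 32 (2% against fresh) and 23 (2% against 60%) became 15, 18 and 14 when only contigs of at least 500 bases were counted, and the 31 rises on rewatering became 17, since fewer contigs were counted. The 5 catalytic contigs lower after rehydration than in fresh leaves became 3 in that set, 2 with only the 6 libraries compared and 1 with voom, and the 1 higher became 0 with only those 6 libraries, 0 with voom and 2 with DESeq2. Fitting only the 6 libraries, cellulose synthase-like falls at 60% became 6, rises at 2% against fresh 3, rises from 60% to 2% 9 (8 with voom), and the 2 lower after rehydration 0 (0 with voom, 4 with DESeq2). Over all contigs, rehydrated against fresh gave 4373 calls, but 380 with only those 6 libraries, 1590 with voom and 7471 with DESeq2. The causes were not tested.

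With the replicate numbers as a block, catalytic contigs after rehydration against fresh were 3 lower and 2 higher, and 1 cellulose synthase-like contig was lower. Over 18 pairs of libraries with the same number, the correlation of deviations ran from -0.15 to 0.25, with 3 over 0.1. Of the 12 libraries, 6 correlated best with their own number. With 3 libraries per state, such correlations cannot decide whether the numbers mark a pairing.

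Leaving out 1 library at a time, catalytic falls ranged from 24 to 31 (60% against fresh), 29 to 33 (2% against fresh) and 16 to 23 (2% against 60%), with 0 to 1 rises in the last, 30 to 32 rises on rewatering, and 1 to 5 lower and 0 to 2 higher after rehydration against fresh. Cellulose synthase-like falls ranged from 7 to 16, 12 to 18 and 4 to 9 in the same 3 comparisons, rises at 2% from 3 to 5 against fresh and 4 to 7 against 60%, rises on rewatering from 7 to 18, and after rehydration 0 to 3 were lower and 0 to 3 higher than fresh. Members with few reads, such as those of subunits 4, 5 and 8, are limited by depth.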
